A study of Mus musculus with 6 samples.

Results

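The Hox genes are transcription factor genes held in 4 clusters, Hoxa, Hoxb, Hoxc and Hoxd, and here 38 of them were followed in mouse rib cages at 16.5 dpc. They were matched by gene symbol to the 55487 gene IDs of the deposited count table, and were read in all 6 libraries in the order of their paralog number, the number that related genes share across the clusters. Poly(A) RNA was sequenced from the rib cages, cleaned of connective tissue, of 3 control embryos (E420, E434 and E435) and 3 mutant embryos (E423, E433 and E440) on a mixed C57B6 and Black Swiss background. The mutants are labelled Col2-cre;Foxc1-/-;Foxc2-/-, and the controls are labelled wild type. According to the methods, the mutants came from males with Col2-cre and 1 deleted copy of each Foxc gene, crossed to females homozygous for the floxed alleles. In these mutants Col2-cre, which acts in cartilage progenitors, removed the floxed Foxc1 and Foxc2 alleles, so cells of the rib cage outside that lineage kept the floxed alleles. The methods state that littermates were compared. A littermate from this cross carries at least 1 floxed copy of each gene, whatever its label. In its skeletal staining the paper describes controls as lacking Col2-cre, so the presence of Col2-cre may differ between the groups as well. The alleles of the control embryos used for RNA are not stated.

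Hox genes lie along each cluster in the order in which they are switched on from head to tail of the embryo, and the combination of genes active at a body level gives the vertebrae and ribs of that level their form. Genes of low paralog number mark the hindbrain and neck, those of middle number the thorax with its ribs, and those of high number the lumbar, sacral and tail regions and the distal limbs. Group 6 genes promote ribs, group 9 genes act on the form of the lower ribs, and group 10 genes suppress ribs in the lumbar spine. Cells of adult and embryonic skeleton keep much of this code, so the order of Hox levels tells from which body level a tissue was taken.

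The libraries held 37853988 to 47794799 counts, of which 8951 to 11697 fell on Hox genes, and 1 count equalled 0.0209 to 0.0264 CPM (counts scaled to a library of fixed size), taking the library total. Foxc1 stood at 23.1, 36.9 and 24.2 CPM, from here on scaled by the TMM method, in the control libraries E420, E434 and E435, but at 3.56, 9.61 and 3.51 CPM in the mutant libraries E423, E433 and E440. Foxc2 stood at 1.99, 4.83 and 3.22 CPM in the controls and at 0.649, 1.14 and 0.737 CPM in the mutants, so both targeted genes were lower in every mutant library. Libraries E434 and E433 stood apart from the others of their groups. The summed level of 13 early chondrocyte markers was 28573 CPM in E434 and 10606 CPM in E433, against 2142 and 2041 CPM in the other controls and 699 and 675 CPM in the other mutants. The other libraries formed close pairs, E420 with E435 and E423 with E440, whose counts differed by 5.89 and 2.35 chi-square units per gene, where sampling noise alone gives 1 and every other pair of libraries gave 44.6 to 234. Nothing in the labels accounts for this closeness. Both pairs differed by more than sampling noise over all genes and were kept as separate samples. Over the Hox genes alone they differed by 1.46 (E420 with E435) and 1.15 (E423 with E440) units per gene, near that noise. Every other pair gave 5.83 to 27.3 over the Hox genes. For Hox genes the libraries of a close pair thus add little spread of their own. The p-values measure only the spread between these 6 samples.

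Hox levels were highest at the middle paralog numbers, groups 4 to 8, which run from the neck into the thorax. Levels are given as CPM per kilobase of exon (CPM per kb), which allows genes to be compared with each other. Hoxc8, Hoxc6, Hoxa7, Hoxa5 and Hoxd8 had the highest means over the 6 libraries, at 11.6, 11, 10.2, 9.71 and 8.81 CPM per kb. Pooled over the groups these 5 genes could not be ranked among themselves, since the widest gap between neighbours in that order, from Hoxc6 to Hoxa7, was 1.08 SD of their difference across the libraries. Within the groups the place of Hoxd8 differed, since it was the lowest of the 5 in every control, at 6.72, 6.42 and 7.2 CPM per kb, and the highest of them in mutants E423 and E440, at 11 and 11.8 CPM per kb. Its top place depends on how length is counted. In TPM, a measure from the authors' other pipeline, Hoxd8 stood at 17.9 and 17.5 in E423 and E440, below Hoxa7 at 19.3 and 18.6. Hoxc4, Hoxb4, Hoxb7 and Hoxc5 followed at 5.39, 4.65, 4.26 and 3.07 CPM per kb. Only 9 members stayed above 2 CPM per kb in every library, and all 9 belong to paralog groups 4 to 8.

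**Figure D1:**
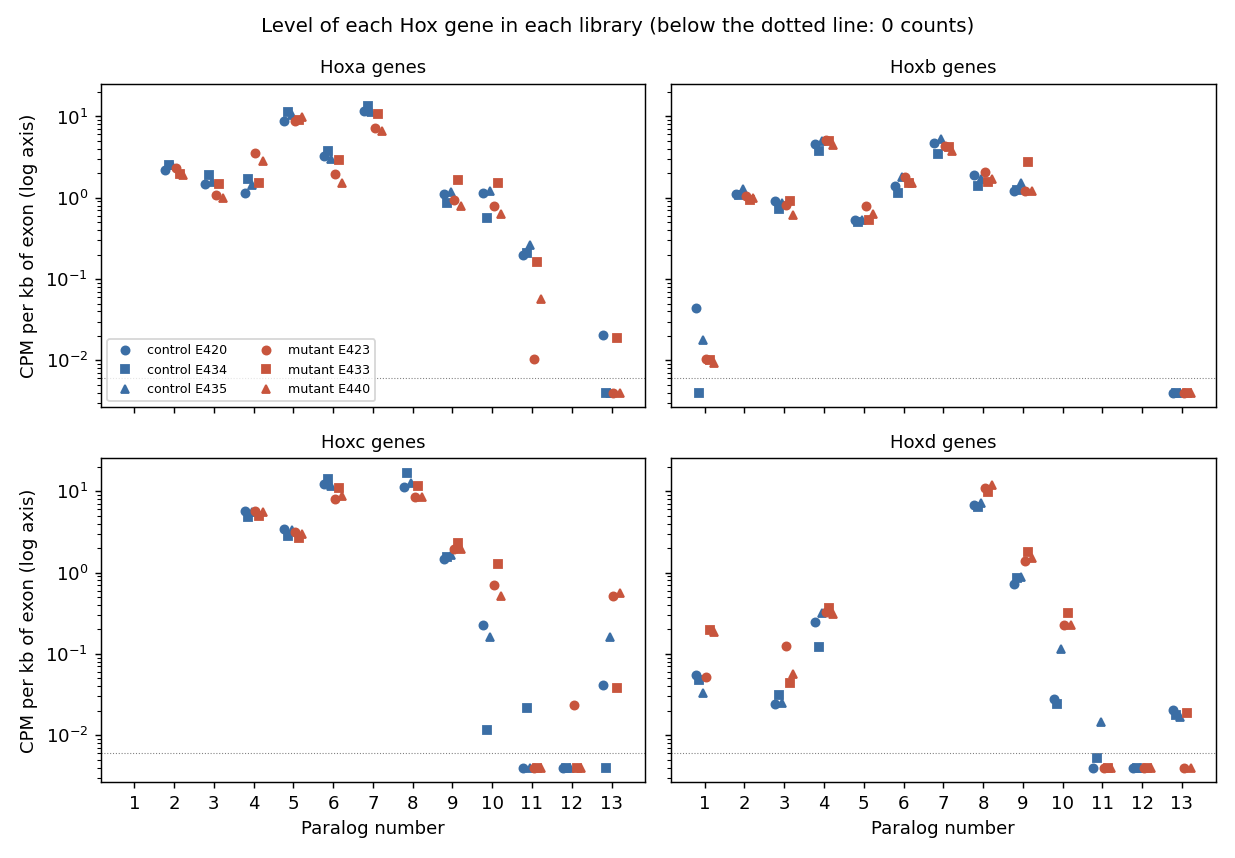
Level of each Hox gene (y axis, CPM per kb of exon, log axis) against paralog number (x axis) in the 3 control (blue) and 3 mutant (red) libraries, 1 panel per cluster, with libraries at 0 counts drawn below the dotted line. Levels are highest in groups 4 to 8 and drop from group 9 onward, with Hoxc13 in mutants E423 and E440 above its neighbours, and Hoxd8 reaches 8.81 CPM per kb on average while Hoxd1, Hoxd3 and Hoxd4 reach 0.362 CPM per kb at most.

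Summed by paralog number, groups 4 to 9 held 91.9% ± 0.688 (SD, n = 3) of the Hox level in controls and 91.2% ± 0.636 (SD, n = 3) in mutants. On this scale group 8 held the largest share in every library, at 22.3%, 25.2% and 22.7% in E420, E434 and E435 and at 25.3%, 24.1% and 26.4% in E423, E433 and E440. Groups 1 to 3 held 5.74% to 6.67%, and groups 11 to 13 held 0.25% to 0.737%. The share of groups 1 to 3 depends on how length is counted. With TPM from the authors' other pipeline, which weights the transcripts in use, it was 13.1% to 16.8%, and groups 4 to 9 held 82.6% in controls and 82.3% in mutants. The leading group changed as well: in TPM group 7 held 21.9%, 22.4% and 21.4% in E420, E434 and E435, above group 8 at 18.9%, 20.9% and 18.9%, whereas in the mutants group 8 led at 20.5% to 22.6%. Group 2 went from 3.81% to 9.33% of the level in controls with TPM, and group 3 from 2.66% to 6.36%. Hoxb2 alone stood at 1.08 CPM per kb and 13.2 TPM on average. Other genes share 27.3% of the exon bases of Hoxb2 and 27.1%, 52.9% and 62.8% of those of Hoxa3, Hoxb3 and Hoxd3, so the levels per length of these genes are uncertain.

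The caudal end of the code lay near the detection limit. Hoxb13 and Hoxd12 had 0 counts in all libraries. If counts were independent, this would allow at most 3 counts, or 0.0628 to 0.0793 CPM, per library. Each end of a fragment was counted separately, so the true limit is higher, and small counts stand for fewer fragments. Hoxa13, Hoxb1, Hoxc11, Hoxc12, Hoxd11 and Hoxd13 had 4 counts or fewer in any library. These 8 members did not reach 10 counts summed over the 6 libraries and were not tested, which left 30 of 38 tested. Hoxd13, a gene of the digits and the tail end, had 2 counts in each of 4 libraries and 0 in the other two, and Hoxb1, a hindbrain gene, had 4 counts at most. Cdx1 and Cdx4, which switch on Hox clusters in the early embryo, were at 0 counts throughout.

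The question between the groups was whether loss of Foxc1 and Foxc2 in cartilage progenitors went with a different Hox code. By edgeR's quasi-likelihood test over 26596 genes, with limits of 0.1 on the adjusted p and 1 on the size of the log2 fold change, 0 of the 30 tested members were called higher and 0 were called lower, where 0.0338% of all genes were called higher and 0.0301% lower. At an unadjusted p under 0.05, 8 members were higher and 5 lower in mutants, which is 43.3% of the 30 against 10.6% of all genes (5.90% higher and 4.70% lower). DESeq2's Wald test, applied to the same counts, called Hoxc10 and Hoxd10 higher and 0 members lower, against 1.33% and 0.459% of all genes. By its adjusted p alone 4 members passed (Hoxc10, Hoxd8, Hoxd9 and Hoxd10), against 3.57% of all genes. For 1 gene at a time an exact permutation test of 3 libraries against 3 cannot give a two-sided p below 0.1, so no such p is given. In bulk RNA, fewer cells of a type and less RNA per cell cannot be told apart.

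The ranges of the groups did not overlap for 12 members, 6 of them higher in mutants (Hoxc9, Hoxc10, Hoxd3, Hoxd8, Hoxd9 and Hoxd10) and 6 lower (Hoxa3, Hoxa6, Hoxa7, Hoxa11, Hoxb2 and Hoxc6). Over all genes tested, 6.81% were apart and higher and 8.21% apart and lower. Among the higher members, 5 of 6 stayed apart under each of 3 other scalings, with Hoxd3 as the exception. Among the lower members 3 of 6 did so (Hoxa6, Hoxa7 and Hoxa11). The members did not move as 1 block: of the 30, 18 had a log2 fold change above 0 and 12 below 0, and their median was 0.10, beside 0.01 over all genes tested. Of the 26596 genes tested, 13628 were above 0 and 12968 below 0.

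**Figure D2:**
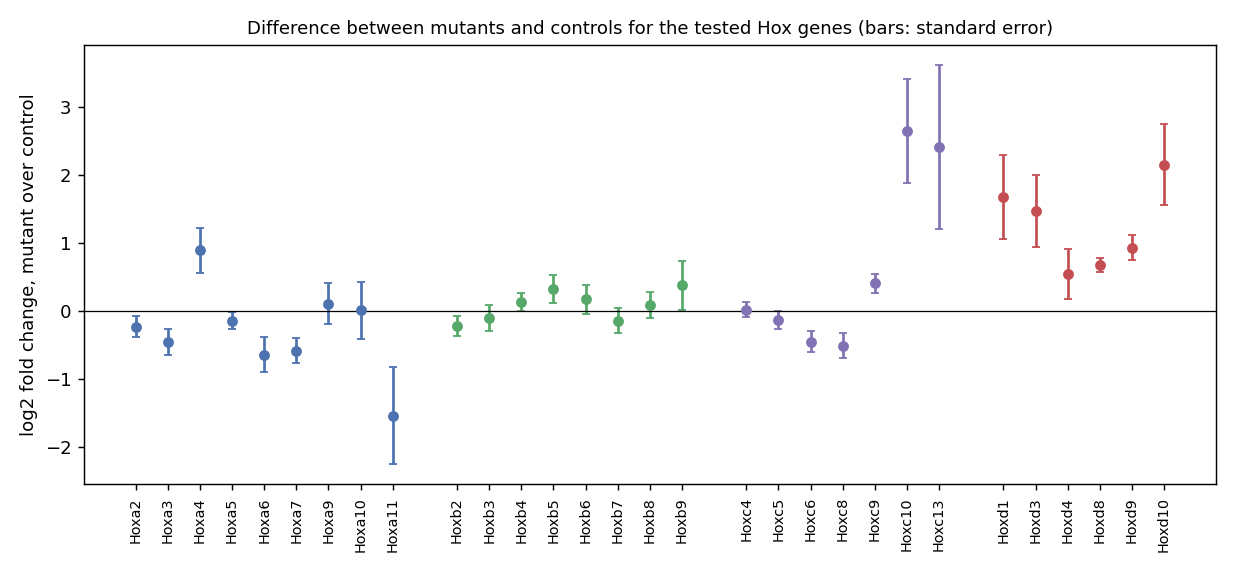
Log2 fold change, mutant over control, of the 30 tested Hox genes (y axis) by cluster and paralog number (x axis, colours by cluster), with the standard error of the fit as bars. All 6 tested Hoxd genes lie above 0, the Hoxb genes lie between -0.22 and 0.38, and none passed both limits.

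The Hoxd cluster was the one whose share differed most plainly. It held 8.69%, 7.74% and 9.07% of the Hox level in the control libraries E420, E434 and E435, and 15.2%, 13.2% and 16.9% in the mutant libraries E423, E433 and E440. The groups did not overlap, and the same held for TPM, with 5.98% to 7.27% in controls and 10.7% to 14.5% in mutants. All 6 tested Hoxd members had log2 fold changes above 0, from 0.54 to 2.15 with a median of 1.2, against 3 of 9 in the Hoxa cluster with a median of -0.23. The Hoxa share was 34.4% to 37.4% in controls and 30.4% to 32.7% in mutants, and the Hoxc share 37% to 41.1% and 33.4% to 35.8%. The Hoxb share overlapped between the groups. Since shares add up to a whole, a higher share of one cluster lowers those of the others.

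**Figure D3:**
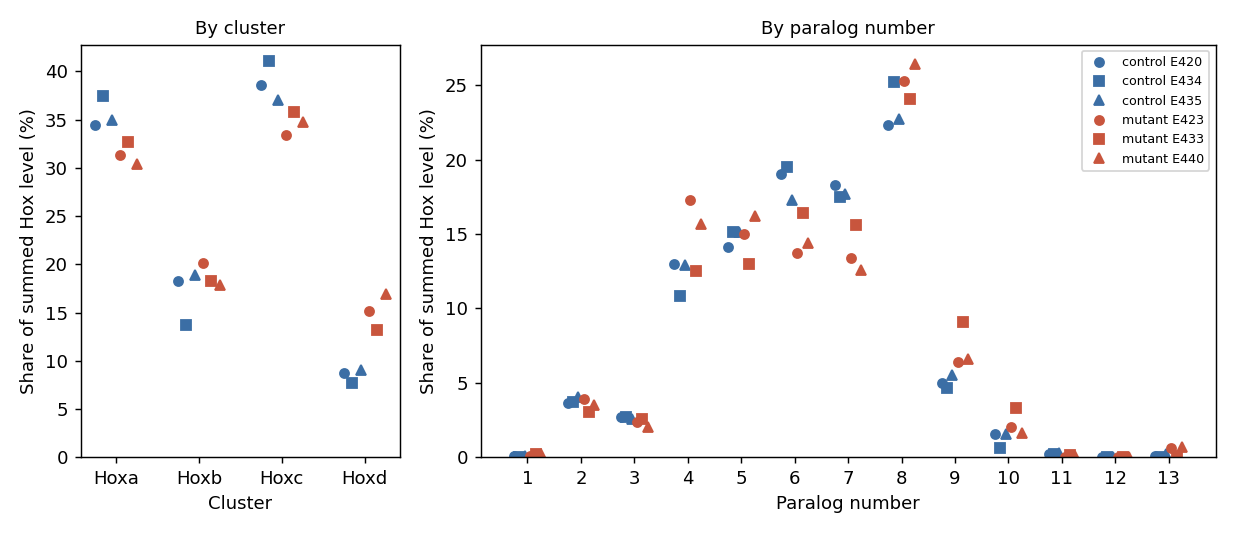
Share of the summed Hox level (y axis, %, from CPM per kb) held by each cluster (left) and by each paralog number (right) in the 3 control (blue) and 3 mutant (red) libraries, with 1 point per library. The Hoxd share is 7.74% to 9.07% in controls and 13.2% to 16.9% in mutants, and group 8 leads in every library on this scale, though group 7 leads in the controls in TPM.

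Hoxd8 carried most of this share. It is a gene of the trunk (ENSMUSG00000027102.4, GRCm38 chr2:74704615-74707933, + strand) and shares no exon bases with another gene. Its counts were 724, 799 and 958 in E420, E434 and E435 and 1250, 1156 and 1493 in E423, E433 and E440. On the CPM scale the controls stood at 18.4, 17.6 and 19.7 and the mutants at 30.1, 26.8 and 32.4, so the groups were well apart, with an SD of 1.07 CPM over the 3 controls and 2.78 CPM over the 3 mutants. Hoxd8 was 1.6-fold higher in mutants (log2 fold change 0.68, SE 0.104), and had the smallest p of all members, 0.000449, yet an adjusted p of 0.155 by edgeR's quasi-likelihood test. DESeq2 gave an adjusted p of 1.63e-05 for it, and its fold is below the limit in both tests. Without E434 and E433 its log2 fold change was 0.71, so the difference was as large without the libraries that stood apart.

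Hoxd9 and Hoxd10 lie next to Hoxd8 and mark lower trunk levels. Hoxd9 stood at 1.53, 1.83 and 1.9 CPM in E420, E434 and E435 and at 2.96, 3.87 and 3.19 CPM in E423, E433 and E440. All mutant libraries were above all controls, by 1.9-fold in the fit (log2 fold change 0.93, SE 0.18, edgeR adjusted p = 0.235). Hoxd10 had only 2, 2 and 10 counts in the controls and 17, 25 and 19 in the mutants, which is 0.1 ± 0.0916 CPM (SD, n = 3) against 0.467 ± 0.098 CPM (SD, n = 3). Its mutant libraries were close to each other and its controls spread from 0.0441 to 0.206 CPM. The log2 fold change of Hoxd10 was 2.15 (SE 0.599, edgeR adjusted p = 0.38, DESeq2 adjusted p = 0.0952). It was 3.22 without control E435, the highest control, and 1.59 without E434 and E433.

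The 250 bases before the RefSeq start of Hoxd8 and of Hoxd10 are printed because both members, which flank Hoxd9, were higher in every mutant library. Both are from GRCm38.p6, + strand, written 5′ to 3′, with capitals at each CG pair, the site of DNA methylation.
Hoxd8, chr2:74704365-74704614: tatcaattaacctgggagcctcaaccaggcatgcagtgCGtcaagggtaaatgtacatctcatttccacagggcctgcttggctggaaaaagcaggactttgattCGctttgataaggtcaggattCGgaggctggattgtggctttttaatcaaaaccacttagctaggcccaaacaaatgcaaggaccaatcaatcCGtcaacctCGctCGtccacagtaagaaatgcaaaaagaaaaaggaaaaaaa
Hoxd10, chr2:74691641-74691890: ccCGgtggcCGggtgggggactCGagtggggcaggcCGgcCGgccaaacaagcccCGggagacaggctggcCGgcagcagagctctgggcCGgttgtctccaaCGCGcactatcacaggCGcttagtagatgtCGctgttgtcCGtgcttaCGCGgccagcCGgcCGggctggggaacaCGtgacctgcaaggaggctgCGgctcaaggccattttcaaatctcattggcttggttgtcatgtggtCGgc
The Hoxd8 stretch held 6 CG pairs and 44.4% G and C, and that of Hoxd10 held 20 CG pairs and 65.6% G and C, so these members, higher together, differ in base composition. Promoters were found for 22 of the 38 members, 24 entries in all, with a median of 58.6% G and C against 52.4% over the 32851 promoters of RefSeq. The forkhead motif GTAAACA, the kind of site that Foxc proteins bind, was searched on both strands of each 250-base stretch. It was in 0 of the 24 Hox entries and in 3.17% of all promoters. The letters TGATNNAT, bound by Hox proteins together with Pbx proteins, were in 4 of the 24 entries (Hoxa2, Hoxb1, Hoxb8 and 1 of the 2 Hoxd11 entries) and in 7.68% of all promoters. Neither motif was in the Hoxd8 or Hoxd10 stretch, which says only that these letters are not in these windows.

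The Hoxd genes of low number were scarce. Hoxd1 had 4, 4 and 3 counts in controls and 4, 16 and 16 in the mutant libraries E423, E433 and E440. Mutant E423 was thus level with the controls, and the log2 fold change of 1.68 (SE 0.618, edgeR adjusted p = 0.437) rests on the other mutants. Hoxd3, which helps to form the uppermost vertebrae, had 4, 6 and 5 counts in controls and 22, 8 and 11 in mutants. Its groups were apart in these counts, with a log2 fold change of 1.47 (SE 0.528, edgeR adjusted p = 0.429), but not in TPM, where mutant E433 lay at 0.1 TPM among controls of 0.09 to 0.23 TPM. Hoxd4 overlapped between the groups, at 0.353 to 0.928 CPM in controls and 0.91 to 1.07 CPM in mutants.

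Group 9 and 10 genes belong to the lower thorax and the lumbar region. All 7 had a log2 fold change above 0, with a median of 0.41, where 13628 of the 26596 genes tested were above 0. Without E434 and E433, however, Hoxa9, Hoxa10 and Hoxb9 turned to -0.39, -0.73 and -0.19. Hoxc9, Hoxc10, Hoxd9 and Hoxd10, 4 of the 7, were apart and higher over all 6 libraries, against 6.81% of all genes tested. The 7 genes together held a share of the Hox level of 6.56%, 5.26% and 7.11% in E420, E434 and E435 and 8.38%, 12.3% and 8.23% in E423, E433 and E440. Mutant E433 had the highest level of all 6 libraries for 7 of these 7 genes. E433 also had the highest sum of hepatocyte markers, 602 CPM against 30.2 to 47.7 CPM in the other libraries, and the part of liver RNA in the Hox levels was not tested. E433 had more early chondrocyte RNA than the other mutants too, and with the level of those markers as a covariate the log2 fold changes were 0.46 for Hoxc9, 2.67 for Hoxc10, 1.01 for Hoxd9 and 2.13 for Hoxd10. Their edgeR adjusted p was then 0.238, 0.203, 0.0705 and 0.237, and the part of cartilage RNA in these levels was not tested.

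Hoxc10, one of the lumbar genes, had 17, 1 and 15 counts in E420, E434 and E435 and 55, 105 and 46 in E423, E433 and E440. This is 0.433, 0.0221 and 0.309 CPM in controls and 1.32, 2.44 and 0.997 CPM in mutants, so the lowest mutant stood above the highest control. The log2 fold change was 2.64 (SE 0.762, edgeR adjusted p = 0.385, DESeq2 adjusted p = 0.0146), and it was 2.1 without E434, 2.20 without E433 and 1.65 without both. Hoxc9 stood at 3.59, 3.75 and 4 CPM in controls and 4.71, 5.66 and 4.75 CPM in mutants, again apart (log2 fold change 0.41, SE 0.14, edgeR adjusted p = 0.419). Markers of fat cells were likewise apart, with summed levels of 151 to 168 CPM in controls and 224 to 700 CPM in mutants. The mutant sums were 685, 224 and 700 CPM in E423, E433 and E440. The part of fat cell RNA in the Hoxc10 level was not tested.

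Hoxa10, Hoxa9 and Hoxb9 did not part by genotype. Hoxa10, the leading gene of its group by level, stood at 3.74, 1.83 and 4 CPM in E420, E434 and E435, against 2.62, 4.97 and 2.06 CPM in E423, E433 and E440, and its log2 fold change was 0.01 (SE 0.423, edgeR adjusted p = 0.996). The libraries that stood apart took the lowest and the highest place, and without them the log2 fold change was -0.73. Hoxb9 was at 3.08 to 3.96 CPM in all libraries but E433, which had 7.19 CPM. Hoxa9 ran from 4.44 to 6.53 CPM in all libraries but E433, which had 9.26 CPM.

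The genes of the upper and middle thorax went the other way in the Hoxa and Hoxc clusters. Hoxa7 (ENSMUSG00000038236.8, GRCm38 chr6:52214491-52221854, - strand) stood at 33.7, 39 and 33.1 CPM in E420, E434 and E435 and at 20.7, 30.6 and 19.3 CPM in E423, E433 and E440. All mutants were below all controls, and E433 was the nearest to them. The ratio in the fit was 0.668 (log2 fold change -0.58, SE 0.189, edgeR adjusted p = 0.411). Another gene, the antisense Hoxaas3, covers 20.4% of the exon bases of Hoxa7, and strand was not used in counting. Hoxaas3 itself stood at 1.32 to 1.53 CPM in controls and 1.35 to 1.58 CPM in mutants, far below Hoxa7.

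Hoxc6, a gene of the rib-promoting group, stood at 29.8, 34 and 27.9 CPM in controls and at 19.1, 26.8 and 21.3 CPM in E423, E433 and E440 (log2 fold change -0.45, SE 0.15, edgeR adjusted p = 0.415). The groups were apart in counts, but in TPM mutant E433 at 28.2 lay among the controls, at 25.4 to 32.4. Hoxa6, of the same group, was at 2.66 to 3.24 CPM in controls and 1.73, 2.55 and 1.34 CPM in mutants (log2 fold change -0.64, SE 0.26, edgeR adjusted p = 0.465). Hoxc8, which gives the lowest ribs and the first lumbar vertebra their form, was at 32.4, 47.3 and 35.8 CPM in controls and 24.4, 32.6 and 23.9 CPM in mutants. The groups of Hoxc8 touched, since E433 lay just above control E420 (log2 fold change -0.51, SE 0.186, edgeR adjusted p = 0.433). For Hoxa7, Hoxc6 and Hoxc8, E434 was the highest control and E433 the highest mutant, as for the early chondrocyte markers. With the mean level of those markers as a covariate the log2 fold changes of these genes were -0.44, -0.33 and -0.33, smaller than without it. Their edgeR adjusted p was then 0.142, 0.183 and 0.133, and the part of cartilage RNA in them was not tested. Hoxb6, Hoxb7 and Hoxb8 overlapped between the groups, with levels of 2.23 to 3.56, 5.29 to 8.14 and 3.66 to 5.53 CPM.

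**Figure D4:**
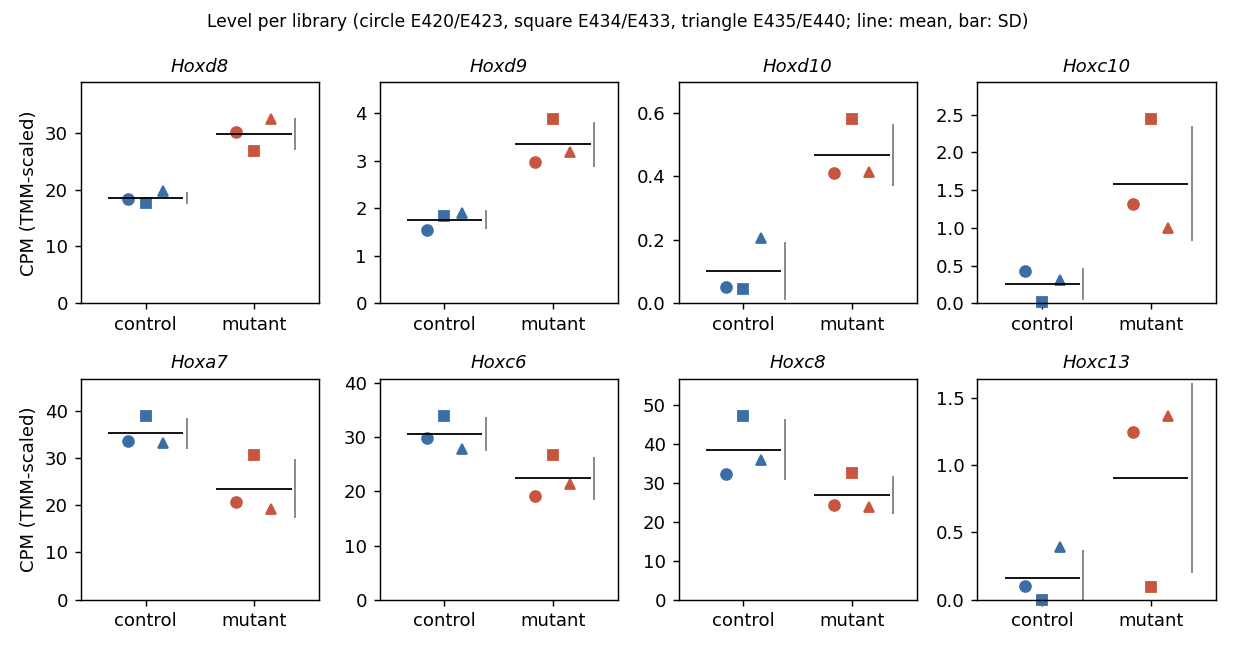
TMM-scaled CPM (y axis, from 0) of 8 Hox genes in each control and mutant library (x axis), with 1 point per library, the group mean as a line and the SD (n = 3) as a grey bar, cut at 0. Hoxd8, Hoxd9, Hoxd10 and Hoxc10 are higher in every mutant than in every control, Hoxa7 and Hoxc6 are lower in every mutant, and Hoxc8 and Hoxc13 overlap.

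Ratios between members within a library do not depend on how libraries are scaled. Per kilobase, Hoxd8 was at 0.587, 0.385 and 0.569 of the level of Hoxc8 in E420, E434 and E435 and at 1.27, 0.849 and 1.39 in E423, E433 and E440. Hoxd9 was at 0.061, 0.0632 and 0.0771 of the level of Hoxa7 in controls and at 0.192, 0.17 and 0.222 in mutants. Both ratios were higher in every mutant, and both pairs were chosen after the values were seen, so no test is given.

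Hoxa7 and Hoxc8 are also known targets of miR-196, a microRNA encoded inside the Hox clusters. Its mature forms are printed from RefSeq (GRCm38.p6), 5′ to 3′, with the seed, bases 2 to 8, in capitals, and both forms have the same seed.
miR-196a-5p, from chr11:96265187-96265208 and chr15:102973365-102973386, both + strand: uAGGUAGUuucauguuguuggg
miR-196b-5p, from chr6:52230129-52230150, - strand: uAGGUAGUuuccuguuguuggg
Target sites in 3′ UTRs of GENCODE M21 transcripts (GRCm38) are given as DNA, 5′ to 3′, with capitals opposite the seed. Exact matches to the 7 seed bases were in 8 of 38 members (Hoxa4, Hoxa5, Hoxa7, Hoxa9, Hoxb1, Hoxb6, Hoxb7 and Hoxc8), and in 6.1% of 21020 genes with a 3′ UTR. Hoxa7 held 4 of the 12 sites and Hoxc8 held 2, and 1 site of each is shown. The Hoxb8 site has a G to U pair in place of an exact seed match, and paired over all 22 bases.
Hoxa7, chr6:52215210-52215231, - strand: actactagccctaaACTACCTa
Hoxc8, chr15:102992976-102992997, + strand: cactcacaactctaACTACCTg
Hoxb8, chr11:96284888-96284909, + strand: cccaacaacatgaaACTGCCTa
Hoxa7 was lower in every mutant, Hoxc8 overlapped slightly, and Hoxb8 was at 3.66 to 5.04 CPM in controls and 4.08 to 5.53 CPM in mutants. Mature microRNAs are not captured in these libraries. Over the hairpin genes Mir196a-2 and Mir196b there were 0 counts, and over Mir196a-1 there were at most 0.139 CPM, so nothing can be said of the levels of miR-196.

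Groups 2 to 5 belong to the hindbrain, the neck and the top of the thorax, and their Hoxd members are given above. Hoxa5, the leading gene of group 5, stood at 16.3, 21.3 and 19.6 CPM in controls and 16.7, 17.1 and 18.3 CPM in mutants (log2 fold change -0.14, SE 0.125, edgeR adjusted p = 0.729). Hoxc4, leading group 4, had 12.5 to 14.6 CPM in controls and 12.9 to 14.8 CPM in mutants (log2 fold change 0.02, SE 0.114, edgeR adjusted p = 0.965). Both genes overlapped between the groups, as did Hoxb3, Hoxb4, Hoxb5 and Hoxc5. Hoxb2 was at 3.73 to 4.53 CPM in controls and 3.25 to 3.7 CPM in mutants, a narrow gap. Hoxa2 ran from 3.84 to 4.54 CPM in controls and from 3.38 to 4.11 CPM in mutants.

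Hoxa4 and Hoxa3 had larger differences than these. Hoxa4 stood at 1.81, 2.71 and 2.29 CPM in E420, E434 and E435, at 5.72 and 4.49 CPM in E423 and E440, and at 2.41 CPM in E433. The last mutant lay within the controls (log2 fold change 0.89, SE 0.337, edgeR adjusted p = 0.444). Without E433 and E434 the log2 fold change was 1.30 with an edgeR adjusted p of 6.37e-06, which measures only the spread within the close pairs. Hoxa3 was at 8.98, 11.4 and 9.34 CPM in controls and 6.57, 8.96 and 6.02 CPM in mutants, so E433 lay just below E420 (log2 fold change -0.46, SE 0.191, edgeR adjusted p = 0.468).

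Without E434 and E433 the test set the close pairs against each other, and 5 members were called higher (Hoxa4, Hoxc10, Hoxc13, Hoxd3 and Hoxd10) and 1 lower (Hoxa11). In that comparison 5.66% of all genes tested were called higher and 2.59% lower. The spread within the close pairs is much smaller than between the other libraries of a group, so these p-values are set by it.

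At the caudal end Hoxa11 and Hoxc13 had enough counts for a test. Hoxa11, which forms the forearm and sacral region, had 18, 22 and 29 counts in controls and 1, 16 and 6 counts in E423, E433 and E440. The mutants were all below the controls, most of all E423 and E440. The antisense gene Hoxa11os covers 35% of the exon bases of Hoxa11, and these genes cannot be told apart where they overlap. Hoxa11os had 5, 6 and 11 counts in E420, E434 and E435 and 0, 5 and 0 in E423, E433 and E440. Mutant E433 thus tied with control E420 in counts, and their 0.116 and 0.127 CPM differ only by scaling.

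Hoxc13, a regulator of hair and nail keratins, had its libraries in nearly the same order as the skin markers. It had 4, 0 and 19 counts in E420, E434 and E435 and 52, 4 and 63 counts in E423, E433 and E440. The summed level of 9 keratinocyte markers was 5963, 23.1 and 6356 CPM in those controls and 26376, 3344 and 26126 CPM in those mutants, and that of 7 hair follicle markers 68.5, 7.9 and 68.9 CPM and 207, 35.1 and 204 CPM. Both E434 and E433 were low in skin markers and in Hoxc13, and E423 and E440 were high in both. Control E420 had 4 Hoxc13 counts, as did E433, though its keratinocyte sum was near that of E435, which had 19. The part of skin RNA in Hoxc13 was not tested. In 5 of the 6 libraries the keratinocyte sum was 3344 CPM or higher, and in the sixth it was 23.1 CPM. The keratinocyte sum of mutant E433 was below that of controls E420 and E435 and above that of E434. With the keratinocyte level as a covariate, added after the data were seen, the log2 fold changes of Hoxd8, Hoxd9, Hoxd10 and Hoxc10 were 0.61, 1.0, 1.88 and 2.33. Their edgeR adjusted p was 0.131, 0.183, 0.376 and 0.316. For Hoxc8 the log2 fold change was -0.28 (edgeR adjusted p = 0.441). Keratinocyte markers do not measure the dermis, and the part of skin RNA in these levels was not tested.

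Other markers differed between the groups too. The sum of 11 osteoblast markers was 11521 to 16641 CPM in controls and 7996 to 8388 CPM in mutants, that of 6 Schwann cell markers 130 to 141 and 156 to 175 CPM, and that of 5 erythroid markers 10747 to 12993 and 4304 to 8733 CPM. That of 6 macrophage markers was 221 to 236 and 192 to 210 CPM. Of 7 dermal fibroblast markers 3 were apart and higher in mutants, against 6.81% of all genes tested. Pi16 was at 19.1 to 20.6 CPM in controls and 34.7 to 36.2 CPM in mutants. Twist2 was at 3.42 to 7.28 and 12.9 to 14.4 CPM, and Dpt at 169 to 221 and 279 to 298 CPM. Against 8.21% of all genes, 1 marker was apart and lower (Lum, at 470 to 597 and 347 to 442 CPM), so the sums of the 7 overlapped. Muscle, neuron and lung epithelium sums overlapped as well, and 0 of the listed markers of any cell type were at 0 in every library. The part of these cell types, dermal fibroblasts included, in the Hox levels was not tested.

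The partners of Hox proteins showed no difference that passed. Of 9 genes for TALE cofactors, the Pbx, Meis and Pknox homeodomain proteins that bind DNA beside Hox proteins, 0 were called, 0 were apart between groups and the median log2 fold change was -0.15, beside 0.01 over all genes. Meis2 stood at 39.2 to 43.1 CPM in controls and 26.7 to 42 CPM in mutants. Of 20 chromatin and upstream regulators 17 were tested and 0 called. Men1, Phc1, Phc2 and Rnf2 were apart and lower, and Ring1 apart and higher, beside 8.21% and 6.81% of all genes tested. Men1 belongs to the complex that keeps Hox genes active and stood at 56.8 to 57.9 CPM in controls and 41.4 to 51.6 CPM in mutants. Rnf2, of the Polycomb complex that silences them, stood at 85.9 to 94.3 and 69.6 to 81 CPM. Of 17 noncoding RNA genes of the clusters 10 were tested and 0 called, and Hotair and Hottip were at 0 counts throughout.

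Of the 12 limb and girdle patterning genes 0 were called, 3 were apart and higher and 1 lower (En1). The shares of all genes tested were 6.81% apart and higher and 8.21% apart and lower. Shox2, a gene of the upper limb bones and their cartilage, stood at 6.46, 4.3 and 6.45 CPM in E420, E434 and E435 and at 15.5, 14.7 and 14.3 CPM in E423, E433 and E440. Its mutant levels were close together and all above 2 times the control mean of 5.74 CPM (log2 fold change 1.37, SE 0.182, edgeR adjusted p = 0.145, DESeq2 adjusted p = 5.25e-10). Tbx15, which shapes the shoulder blade, stood at 63.4 to 84.9 CPM in controls and 100 to 118 CPM in mutants (log2 fold change 0.63, SE 0.132, edgeR adjusted p = 0.269). Emx2, also a shoulder blade gene, stood at 7.15 to 7.77 CPM and 8.78 to 10.2 CPM. Tbx4 and Pitx1, the genes of the hindlimb, overlapped between the groups, at 1.5 to 2.3 CPM and 2.27 to 11.4 CPM over all libraries.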

How the data were processed

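The authors sequenced rib cage RNA from 6 embryos, 3 controls and 3 mutants at 16.5 dpc, with groups taken from the labels. Stranded, paired-end mRNA libraries were aligned to GRCm38 with HISAT2 2.1.0 and counted on exons of GENCODE vM25 with featureCounts 1.6.0, and per the file headers primary alignments only were counted, without strand and with each end counted separately. The deposited counts are not normalized. The authors also deposited expected counts and TPM per gene from STAR 2.7.6 and RSEM 1.2.31. Tables of the authors' own DESeq2 1.26.0 comparisons, which hold fold changes and adjusted p-values, were not used, nor were 12 columns of per-sample values in them. Tool versions are those of the submitters' processing notes.

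Symbols were taken from GENCODE M21 on GRCm38 (55141 of 55487 gene IDs). Genes needed a sum of 10 counts or more across the 6 libraries, which left 26596. TMM scaling and the quasi-likelihood test (glmQLFit, glmQLFTest) of edgeR 4.0.16 in R 4.3.3 were used, with Benjamini-Hochberg adjustment over all of them. Called means an adjusted p under 0.1 with a log2 fold change no smaller than 1 in size, the limits of the study's methods. The standard error is the log2 fold change divided by the root of the F statistic. Levels per length are TMM-scaled CPM divided by the exon length in the count table. Library totals ran from 37853988 to 47794799 counts. Limits set by a count of 0 are 3 counts and cover counting error only. They take counts as independent and are too low where both ends of a fragment were counted. Fold changes are printed for members with an unadjusted p under 0.05 and for the member of highest level per length in each of paralog groups 4 to 10. The members and gene lists were chosen with earlier results of these data known.

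Alternatives were the Wald test of DESeq2 1.42.0, its size factors within edgeR, a robust fit, no low-count filter, filterByExpr, rounded RSEM expected counts, other limits, each library left out, E434 and E433 left out together, and the early chondrocyte level (mean log2 CPM with a prior count of 2) as a covariate. The keratinocyte level as a covariate and the summing of close libraries were added after seeing the data. The main edgeR fit and the DESeq2 fit were also run on simulated counts. These had independent libraries with a common dispersion and no close pairs, so they do not test the fits on libraries like these. RSEM fragments of at least 50 per pair of libraries and gene entered the chi-square comparison of libraries.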

Additional observations from a re-analysis of the deposited data

How the results depend on the processing

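The count of Hox genes past the limits depended on the processing. Called higher were 0 in the main analysis (0.0338% of all genes) and 2 with DESeq2's Wald test (1.33% of all genes). There were 5 without E434 and E433 (5.66% of all genes), and 8 at an unadjusted p under 0.05 with no fold limit (5.90% of all genes). The number was 1 with the early chondrocyte level as a covariate (Hoxd9), and 0 to 1 when each library was left out. Called lower were 0 (0.0301% of all genes), and 1 without E434 and E433 (2.59%), 5 at an unadjusted p under 0.05 (4.70%), and 0 to 1 when each library was left out. The library that raised both counts when left out was E433, without which Hoxa4 was called higher and Hoxa11 lower. No share of all genes is given for fits without a single library or with the early chondrocyte covariate, so their counts have no baseline. The other alternatives, with RSEM expected counts, DESeq2's size factors, both filters, the robust fit, the stricter limits, the keratinocyte level as a covariate and the close libraries summed, called 0 members in either direction. The share of groups 4 to 9 fell from 91.9% to 82.6% in controls and from 91.2% to 82.3% in mutants with TPM. Of 16 genes with a printed fold change, 14 kept its direction in every alternative run, 16 for each gene but Hoxd1 and Hoxd3, which filterByExpr left out. Hoxa10, at 0.01, turned to -0.02 with RSEM expected counts, to -0.73 without E434 and E433, and to -0.15 with the keratinocyte level as a covariate, and ran from -0.44 to 0.25 when each library was left out. Hoxc4, at 0.02, turned to -0.05 with the early chondrocyte and -0.07 with the keratinocyte level as a covariate, and ran from -0.05 to 0.08 when each library was left out. The cause was not tested. Members under 20 counts in a library, such as Hoxd1, Hoxd3, Hoxd10 and Hoxa11, are limited by depth. No paired analysis was possible because the labels give no shared replicate numbers.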
